A study of Mus musculus with 5 samples.

Results

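The unfolded protein response was followed here through 10 genes, chosen by symbol from the 32285 genes counted in the libraries: the sensors Ern1, Ern2 and Atf6, the transcription factors Xbp1, Atf4 and Ddit3, and the endoplasmic reticulum (ER) proteins Sdf2l1, Pdia4, Creld2 and Manf. All 10 were found, and their level was compared in goblet, Paneth and plasma cells, which secrete mucus, antimicrobial peptides and antibodies, against absorptive enterocytes and B cells. The data are single-cell RNA counts from the intestine of the mouse, with 1 library each of duodenum, jejunum, ileum, colon and rectum. Live cells, sorted as negative for the dye propidium iodide, were run on the 10x Genomics platform. The cells are described as epithelial, mesenchymal and immune, all 5 libraries share that description and differ by segment alone, and no treatment, genotype, strain, age or number of animals is given. No segment was replicated, so no test was made between segments. The tests between cell classes take the 5 libraries as replicates, or for Paneth cells the small intestinal ones alone, and measure only the spread between them.

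Proteins that are to be secreted fold in the ER, and when unfolded proteins accumulate there, 3 kinds of membrane sensor respond. IRE1, encoded by Ern1 in most cells and by Ern2 in mucosal epithelium, splices the messenger of Xbp1 so that it encodes an active transcription factor. ATF6 is cleaved to release one, and PERK slows translation while it favours translation of Atf4, which induces Ddit3 (CHOP), a factor linked to cell death when stress persists. XBP1 and ATF6 raise chaperones, folding enzymes and the machinery of ER-associated degradation, and plasma cell differentiation requires XBP1. The counts used here sum all transcripts of a gene, so spliced and unspliced Xbp1 were not told apart, and a sensor's messenger level is not its activity.

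The libraries held 16535 barcodes and 250629913 unique molecular identifiers (UMIs, each a counted molecule), or 41953568 to 65546664 UMIs per library, and 11922 cells were kept after filtering. The libraries shared few cell barcodes, 30 in all and 14 among the cells kept. The 10 genes were left out when cells were clustered, as were 6 lists of related ER genes, so that they could not define the classes. Clusters were named from marker transcripts alone, so each name stands for a goblet-like, Paneth-like, plasma-like, absorptive-like or B-like class, and the suffix is dropped from here on. In the order duodenum, jejunum, ileum, colon and rectum, which holds for every series of 5 values, there were 45, 36, 251, 385 and 241 goblet cells, 475, 576, 340, 249 and 57 absorptive cells, 88, 58, 31, 89 and 239 plasma cells and 1257, 521, 918, 405 and 521 B cells. Paneth cells numbered 8, 4 and 23 in the 3 small intestinal libraries and none were found in colon and rectum. The goblet class raised 10 to 15 of its 15 markers in each of its clusters, the plasma class all 12 and the B class all 14. Some clusters met no marker list and are in no class. They held 249 ileal cells led by Reg3g, Reg3b and Fabp6, 465 rectal cells led by Wfdc2 and Sycn, and 210 duodenal and jejunal cells led by Rbp7 and Reg1. The absorptive class may thus lack enterocytes of these segments, and at Leiden resolution 0.5 it held 589 ileal cells. Levels are in CPM, the counts of a gene per 1000000 UMIs summed over the cells of a class in a library, with exact 95% Poisson intervals that cover counting error only. CPM of different genes are not set against each other.

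The 10 genes did not share 1 pattern over the 15 named classes. Xbp1, Sdf2l1, Pdia4 and Creld2 were highest in plasma cells by their median over libraries, and Manf was high in stromal, goblet and plasma cells together, with medians of 739, 753 and 645 CPM whose ranges overlapped. By the same measure the sensors peaked elsewhere: Ern2 was highest in goblet cells, Ern1 in innate lymphoid and natural killer cells, and Atf6 in enteroendocrine cells. Atf4 also had its highest median in goblet cells, at 294 CPM, and its range there overlapped those of innate lymphoid, enteroendocrine and T cells. Ddit3 was highest in absorptive cells and had its lowest median in plasma cells, at 12.3 CPM. Because immunoglobulin genes took 60.2% to 66.5% of the UMIs of plasma cells, and defensin (Defa) genes 63.9% to 68.0% of those of Paneth cells, the CPM of any other gene is lower in these 2 classes than it is as a share of the remaining UMIs.

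**Figure D1:**
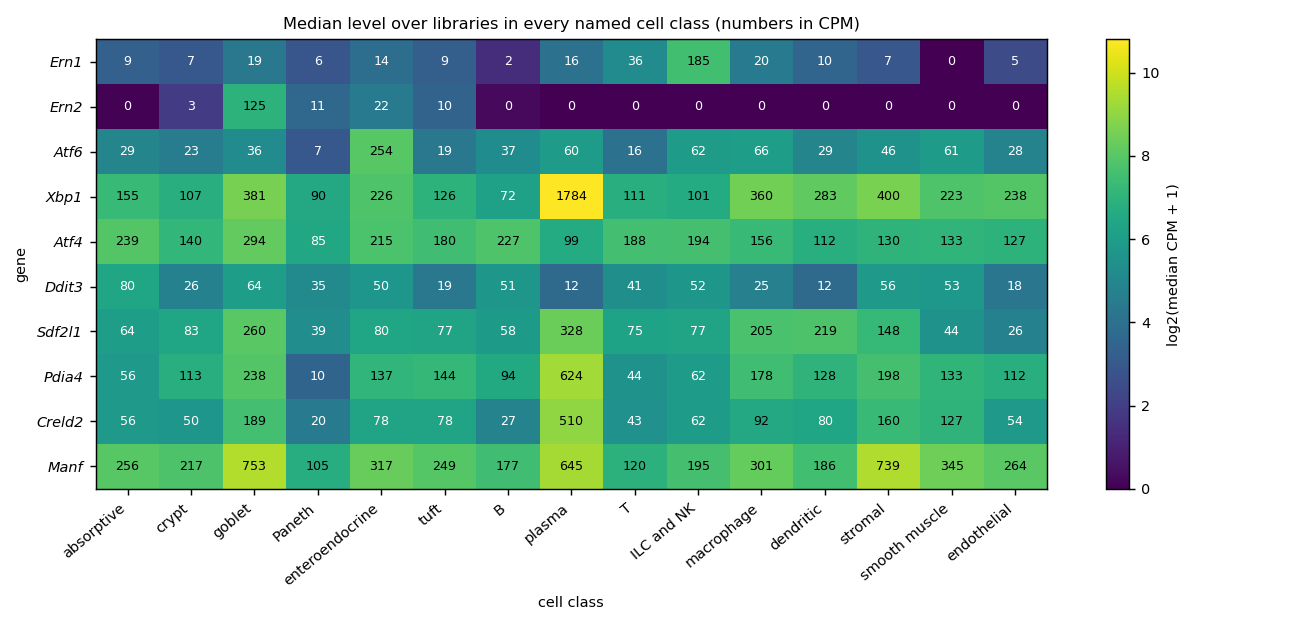
Median CPM over libraries of each of the 10 genes (rows) in the 15 named cell classes (columns), with colour on a log2(median CPM + 1) scale. Xbp1, Pdia4, Creld2 and Sdf2l1 peak in plasma cells, Ern2 and Atf4 in goblet cells, Ern1 in innate lymphoid and natural killer cells, and Atf6 in enteroendocrine cells.

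Many genes of the response are known to be driven through short promoter elements, so the 250 bases before the start of each gene were read for 4 of them, on both strands. RefSeq (GRCm38.p6) promoter sequence matched 7 of the 10 genes: Ern1, Xbp1, Atf4, Ddit3, Sdf2l1, Pdia4 and Creld2. For Ern2, Atf6 and Manf no window was used here. The ER stress element, read as CCAAT, 9 bases and CCACG, was found in 1 of the 7 windows, that of Creld2, on the opposite strand and so in reverse, from 126 to 108 bases before the start. It occurs in 37 of 32851 promoter windows of the genome of this length, or 0.113%. The second ER stress element (ATTGG, 1 base and CCACG) is held by 0.0304% of windows, the UPR element core TGACGTG by 1.65% and the amino acid response element core (TGATG, 1 base and AA) by 3.45%, and none of the 3 was found in the 7 windows. The windows of Creld2, Sdf2l1 and Pdia4 are shown, since these ER proteins were higher in both goblet and plasma cells, with the element of Creld2 in capitals. They lie at chr15:88819396-88819645 on the plus strand for Creld2, at chr16:17132384-17132633 on the minus strand for Sdf2l1 and at chr6:47813513-47813762 on the minus strand for Pdia4.
Creld2: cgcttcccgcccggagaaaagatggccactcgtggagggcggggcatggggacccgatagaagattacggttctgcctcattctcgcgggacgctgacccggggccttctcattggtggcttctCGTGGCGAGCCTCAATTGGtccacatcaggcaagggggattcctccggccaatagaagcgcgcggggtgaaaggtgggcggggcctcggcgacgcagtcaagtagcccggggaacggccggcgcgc
Sdf2l1: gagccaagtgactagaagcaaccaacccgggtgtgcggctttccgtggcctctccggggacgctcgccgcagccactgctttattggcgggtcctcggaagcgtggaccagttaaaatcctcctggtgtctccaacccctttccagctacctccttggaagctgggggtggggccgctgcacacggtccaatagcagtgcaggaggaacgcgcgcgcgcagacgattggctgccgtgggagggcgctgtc
Pdia4: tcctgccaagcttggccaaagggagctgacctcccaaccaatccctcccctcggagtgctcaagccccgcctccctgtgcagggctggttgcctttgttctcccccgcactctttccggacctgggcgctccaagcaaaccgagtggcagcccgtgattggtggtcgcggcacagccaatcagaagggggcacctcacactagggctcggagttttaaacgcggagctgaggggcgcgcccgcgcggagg
A match is a description of these letters, and no binding was measured.

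The first comparison asked which of the genes differ between goblet cells and the absorptive cells of the same libraries. Of the 10, 6 were higher in goblet cells (Ern2, Xbp1, Sdf2l1, Pdia4, Creld2 and Manf) and none was lower at an adjusted p under 0.05 (edgeR quasi-likelihood test that includes a library term, Benjamini-Hochberg adjustment over 12470 genes). Over all genes tested, 22.4% were higher and 22.6% lower, and the median log2 difference was 1.27 for the 10 genes and 0.03 for all. With library totals in place of TMM scaling factors, the median of all genes moved to 0.36, and 3864 genes were higher and 1869 lower, against 2793 and 2823. The 6 genes were called higher under both scalings, and Ern1 with library totals alone as well (log2 0.88, adjusted p = 0.0167, edgeR).

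Among the sensors, Ern2 (chr7:122169893-122186239, all gene positions on GRCm38.p6), the IRE1 of mucosal epithelium, separated the classes most. Its level was 158, 125, 105, 122 and 130.4 CPM in goblet cells and 0.194, 0.0586, 0, 2.13 and 0 CPM in absorptive cells, where 3, 1, 0, 18 and 0 UMIs were counted. Every goblet library lay far above every absorptive one. By library, the ratio was 817 in duodenum (95% counting interval 275 to 3998), 2135 in jejunum (378 to 84763) and 57.5 in colon (36.3 to 97.3). Against a floor of 3 counts per library, it was at least 234-fold higher in ileum and at least 22.2-fold higher in rectum. The edgeR estimate was a log2 difference of 8.12 ± 0.84 (SE), adjusted p = 0.000484, higher in 5 of 5 libraries. A UMI of Ern2 was found in 68.0% to 95.6% of goblet cells and 0% to 4.82% of absorptive cells, and after thinning each cell to 2000 UMIs in 11.4% to 26.7% and in none. The absorptive share was 0 of 340 cells in ileum and 0 of 57 in rectum, with exact (Clopper-Pearson) upper bounds of 1.08% and 6.27%. In B cells, which are of another lineage, the unthinned share was 0% to 0.247% at median depths of 2727 to 3515 UMIs, against 23875 to 38158 in goblet cells.

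Ern1 (chr11:106397620-106487796), the widely expressed IRE1, stood at 20.6, 18.9, 12.5, 10.9 and 21.5 CPM in goblet and 9.09, 10.5, 9.002, 6.74 and 7.83 CPM in absorptive cells. It was higher in goblet cells in 5 of 5 libraries, but the difference missed the threshold (log2 0.54 ± 0.22, adjusted p = 0.0827, edgeR), and it passed without the colon (0.77, adjusted p = 0.0437). Atf6 (chr1:170704457-170868585), the sensor that is itself a transcription factor, was at 33.5, 38.5, 29.1, 35.6 and 37.6 CPM in goblet and 23.0, 29.4, 35.7, 19.4 and 29.4 CPM in absorptive cells. The ranges of Atf6 overlapped, and no difference was called (log2 0.04 ± 0.20, adjusted p = 0.877, edgeR).

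Of the transcription factors, Xbp1 (chr11:5520641-5525993) was at 381, 378, 470.1, 339 and 454 CPM in goblet cells and 167, 181, 155, 103 and 104 CPM in absorptive cells. The lowest goblet value lay above the highest absorptive value, and the log2 difference was 1.21 ± 0.23, adjusted p = 0.00538 (edgeR), higher in 5 of 5 libraries. Atf4 (chr15:80255184-80257545), whose protein output is set mainly by translation, was even across goblet libraries, at 312, 274, 325, 272 and 294 CPM. In absorptive cells it was 239, 239, 269, 103 and 64.6 CPM, closer to the goblet level in the small intestine than in colon and rectum. Over the 5 libraries the difference was not called (log2 0.53 ± 0.34, adjusted p = 0.234, edgeR). Ddit3 (chr10:127290793-127296291) crossed over: it was 49.0, 64.2, 60.6, 91.4 and 76.3 CPM in goblet cells and 89.7, 83.6, 80.1, 31.7 and 35.3 CPM in absorptive cells, so that goblet cells were lower in the 3 small intestinal libraries and higher in the 2 large intestinal ones. The pooled difference of Ddit3 was not called (log2 -0.16 ± 0.39, adjusted p = 0.763, edgeR), and its sign turned with library totals alone (0.17). Its sign also turned with at most 10% mitochondrial UMIs, which left only the 3 small intestinal libraries in the test. The lower Ddit3 level of goblet cells in the small intestine thus depended on that limit. Whether the difference itself depends on the segment was not tested, since the segments are single libraries.

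The 4 ER proteins were all higher in goblet cells. Sdf2l1 (chr16:17130138-17132383), a resident cofactor of the chaperone BiP, was at 312, 259.5, 339, 125 and 125 CPM against 69.9, 64.8, 64.1, 37.6 and 29.4 CPM in absorptive cells, a log2 difference of 1.75 ± 0.20, adjusted p = 0.000682 (edgeR). Pdia4 (chr6:47796141-47813512), a protein disulfide isomerase, was at 264, 238, 287, 149.7 and 159.8 CPM against 62.6, 60.4, 56.0, 52.6 and 45.1 CPM (log2 1.62 ± 0.21, adjusted p = 0.00104, edgeR). In both genes all goblet values lay above all absorptive values. Creld2 (chr15:88819646-88826681), an ER stress-induced protein with disulfide isomerase-like activity, was at 217, 189, 222, 95.8 and 83.1 CPM against 68.8, 58.7, 56.0, 21.2 and 50.9 CPM (log2 1.34 ± 0.24, adjusted p = 0.00395, edgeR). Manf (chr9:106888753-106891938), an ER protein that is also secreted under stress, was at 841, 753, 863, 436 and 446 CPM against 297, 256, 281, 106 and 141 CPM (log2 1.35 ± 0.19, adjusted p = 0.00152, edgeR). These 2 were also free of overlap between the classes, although the gap was narrow for Creld2 in rectum, where the absorptive value rests on 26 UMIs.

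**Figure D2:**
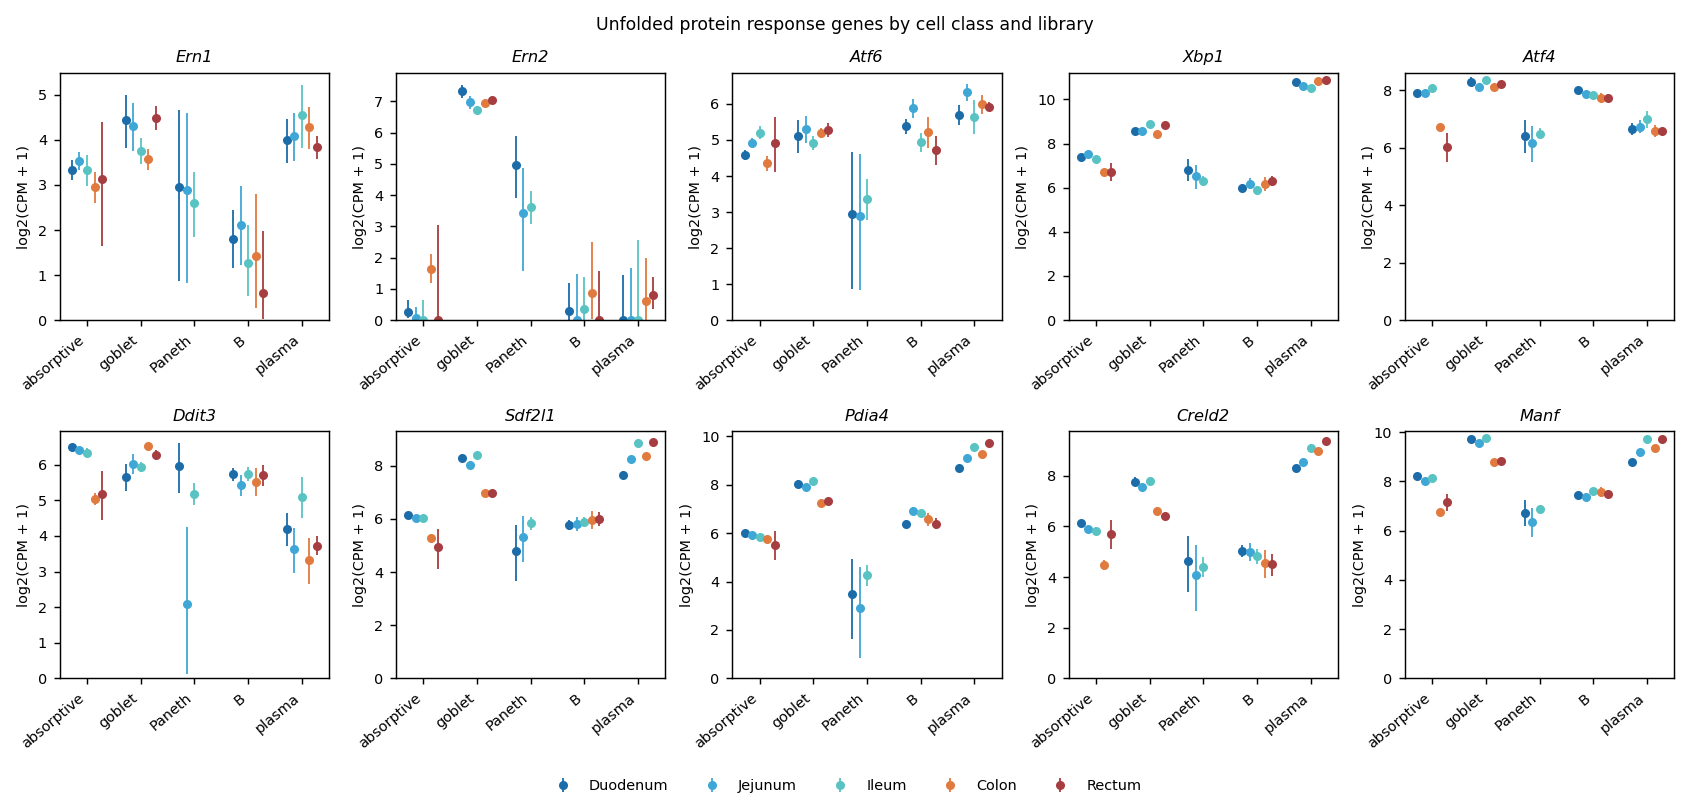
Level of each gene, as log2(CPM + 1), in the 5 compared classes, with 1 point per library and exact 95% Poisson intervals. Goblet points lie above absorptive points in every library for Ern2, Xbp1, Sdf2l1, Pdia4, Creld2 and Manf, and plasma points lie far above B points for Xbp1, Sdf2l1, Pdia4, Creld2 and Manf.

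Other measures also differed between the 2 classes. Absorptive cells had medians of 10.3% to 16.1% mitochondrial UMIs and goblet cells 4.38% to 8.62%. The immediate early and dissociation genes summed to 5496 to 9138 CPM in absorptive and 8528 to 15059.7 CPM in goblet cells. Of these genes, 3 of 18 were higher in goblet cells, a smaller share than the 22.4% of all genes. Goblet cells also held RNA of the 12 plasma markers, at 52.1 to 1455 CPM, highest in colon, against 180213 to 284554 CPM in plasma cells, with no plasma marker at 0. Absorptive cells held 123 to 897 CPM of the same markers and 76.5 to 1355 CPM of the 15 goblet markers, all 15 detected, both highest in rectum. Their part in the differences was not tested. With at most 10% mitochondrial UMIs, which left absorptive cells in the 3 small intestinal libraries alone, 6 genes were again higher, at log2 1.47 for Xbp1 and 1.40 for Manf.

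The wider ER lists showed where the goblet difference reached. Of the 27 chaperones and folding enzymes tested, 16 were higher and 1 lower in goblet cells, with a median log2 difference of 0.98, and of the 29 genes of translocation and signal peptide cleavage 26 were higher and none lower, with a median of 0.94. Agr2, the disulfide isomerase that folds mucin, differed most (8849 to 20188 CPM against 4.10 to 70.1, log2 8.82 ± 0.78, adjusted p = 0.000302, edgeR), and it is also on the list of mucus genes. Fkbp11, a prolyl isomerase, and Selenom, a selenoprotein of the ER, followed at log2 6.44 ± 0.35 and 6.23 ± 1.46. Selenom varied widely in absorptive cells, from 0.527 to 204 CPM, against 764 to 1227 CPM in goblet cells. Of the translocation genes, Sec11c, the catalytic subunit of signal peptidase, differed most (log2 2.003 ± 0.21, adjusted p = 0.000524, edgeR), followed by Rpn1 and Ddost, subunits of the oligosaccharyltransferase, at 1.61 and 1.46. The translocation list had the largest share of higher genes of the 6 lists.

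Degradation and vesicle transport genes were less uniform in goblet cells. Of 20 genes of ER-associated degradation, 7 were higher and 3 lower, and of 22 genes of ER to Golgi transport 5 were higher and 1 lower, the latter close to the 22.4% of all genes. Herpud1, which scaffolds the degradation complex, was at 267 to 374 CPM against 46.8 to 141 (log2 1.45 ± 0.30, adjusted p = 0.00743, edgeR), Selenos, a partner of that complex, differed by log2 1.08, and Derl3 by 3.28 at a goblet level of only 1.72 to 2.77 CPM. Kdelr3, a receptor that returns ER proteins from the Golgi, was higher (log2 4.47 ± 0.74, adjusted p = 0.00287, edgeR), as was Kdelr2 (1.16), whereas Sar1b, the GTPase needed for chylomicron transport, was lower (log2 -1.83 ± 0.40, adjusted p = 0.00890, edgeR). Of the 33 genes of the integrated stress response, 16 were higher and 5 lower, led by the stress-inducible Nupr1 (log2 7.90) and the serine synthesis enzymes Psat1 (6.61) and Phgdh (6.26). Of 21 transducers and regulators, a list that also holds Ern1 and Ern2, 6 were higher and 3 lower, beside the 22.4% of all genes that were higher. After Ern2 itself, the list was led by Creb3l4 (85.2 to 122 CPM against 0.3001 to 1.96) and Creb3l1 (187 to 402 CPM against 1.05 to 16.1), membrane-bound transcription factors of secretory cells.

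Along the intestine, the ER proteins of goblet cells divided at the ileocolic boundary. Sdf2l1, Pdia4, Creld2 and Manf were higher in each of the 3 small intestinal libraries than in either large intestinal one, with mean levels 2.43, 1.70, 2.34 and 1.86 times as high, whereas Ddit3 was the reverse, at 0.691 times. Ern1, Ern2, Atf6, Xbp1 and Atf4 overlapped between the 2 sides. Among 11259 genes with at least 50 UMIs in goblet cells, 9.71% had every small intestinal library above every large intestinal one and 31.9% the reverse, so 4 and 1 of the 10 genes stand beside these shares. Sdf2l1 had the widest gap, its lowest small intestinal value being 2.07 times its highest large intestinal one, and Ddit3 the narrowest, at 1.19 times. The size of these steps depended on the mitochondrial limit. With at most 10% mitochondrial UMIs, Sdf2l1, Creld2 and Manf kept their direction with smaller steps (log2 of large to small -1.05, -1.01 and -0.71). The step of Ddit3 was larger, at 0.99976. Mean levels of Xbp1 and Atf4, slightly higher in the small intestine before, were then higher in the large intestine (0.22 and 0.0459).

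Mucus genes took 14.8% to 19.3% of goblet UMIs in the small and 6.37% to 8.37% in the large intestine, and leaving them out of the totals widened the 4 ratios to between 1.91 and 2.73. It left Ddit3 higher in the large intestine by 1.08 times at the gap, and it put Atf4 higher in the small intestine by 1.02 times. The 10 genes then held 5 with every small intestinal value on top and 1 the reverse, beside 16.2% and 20.7% of 11250 genes under the same totals. Goblet cells of the small intestine also held 6070.3 to 10494 CPM of the Paneth markers, against 53.3 and 277 in colon and rectum. In Paneth cells the 4 ER proteins were lower than in goblet cells of the same library, at 27.1 to 56.0 CPM for Sdf2l1 and 80.6 to 116 CPM for Manf, also with defensin genes left out of the total.

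A single cluster, led by Zg16 and Fcgbp, held nearly all goblet cells of duodenum, jejunum and ileum, and other clusters held those of colon and rectum, so in the step from small to large intestine segment and cluster cannot be told apart. Within the Zg16 cluster, Sdf2l1 was at 312, 261 and 339 CPM in these 3 libraries. The colon held a pair of clusters. The cluster of 289 colonic cells led by Reg4 and Retnlb had 113 CPM of Sdf2l1, 86.9 of Creld2, 385 of Manf and 147 of Pdia4. The cluster of 96 colonic cells led by Plet1 and Ccn3 had 174, 131, 639 and 159.5 CPM. All 8 values lay below the lowest of the Zg16 cluster, which was 261 for Sdf2l1, 190.1 for Creld2, 758 for Manf and 238 for Pdia4. Within the colon, Ddit3 differed more than these, at 71.3 CPM in the Reg4 cluster and 170.3 in the Plet1 cluster, and Ern2 (103 and 200.1) and Xbp1 (290.1 and 532) were also higher in the second. These come from 1 library and have no replicate check. In the rectum, the cluster led by Sval1 and Mptx1 stood at 76.3 CPM of Ddit3.

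In absorptive cells, 9 of the 10 genes had at least 50 UMIs (all but Ern2). Of these, 8 were higher in every small intestinal library than in either large intestinal one, with Atf6 the exception, beside 23.3% of 10710 genes with that many UMIs. Atf4 and Ddit3 had the largest ratios, their mean levels being 2.98 and 2.52 times those of the large intestine, followed by Manf at 2.25 times. For Ern1, Pdia4 and Creld2 the interval of the rectal library overlapped at least 1 of those of the small intestine, and that library had 57 absorptive cells with a median of 5792 UMIs. The colonic value alone also lay below every small intestinal one for the 8 genes, although for Ern1 and Pdia4 its interval too overlapped at least 1 of theirs. Nearly all cells of ileum, colon and rectum lay in a cluster of their own each, and those of duodenum and jejunum shared 2, so here too segment and cluster cannot be told apart across the boundary. With every barcode kept, the rectal class held 1 cell, and with that cell Ern1 was higher in the large intestine (log2 of large to small 0.76), while Creld2, Ddit3 and Manf, with no UMI in it, stood at -2.60, -2.43 and -2.34. Without that cell, an alternative chosen after seeing the data that leaves the colon as the only large intestinal library, the 8 genes were again higher in every small intestinal library, Creld2 by the largest ratio (3.02), followed by Ddit3 (2.70), Atf4 (2.69) and Manf (2.52), and the order of the ratios thus depended on the barcodes kept. The duodenum and jejunum each held a pair of absorptive clusters. The one led by Reg1, Gsta1 and Rbp2 had 372 and 338 CPM of Manf in duodenum and jejunum and 92.2 and 81.7 of Creld2. The one led by Apoa4, Apoc3 and Cyp3a11 had 192 and 209.6 CPM of Manf and 36.3 and 45.6 of Creld2, so the lower values belonged to the Apoa4 cluster in both libraries. Ddit3 differed little between them, at 94.2 and 85.1 CPM against 83.4 and 82.8.

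**Figure D3:**
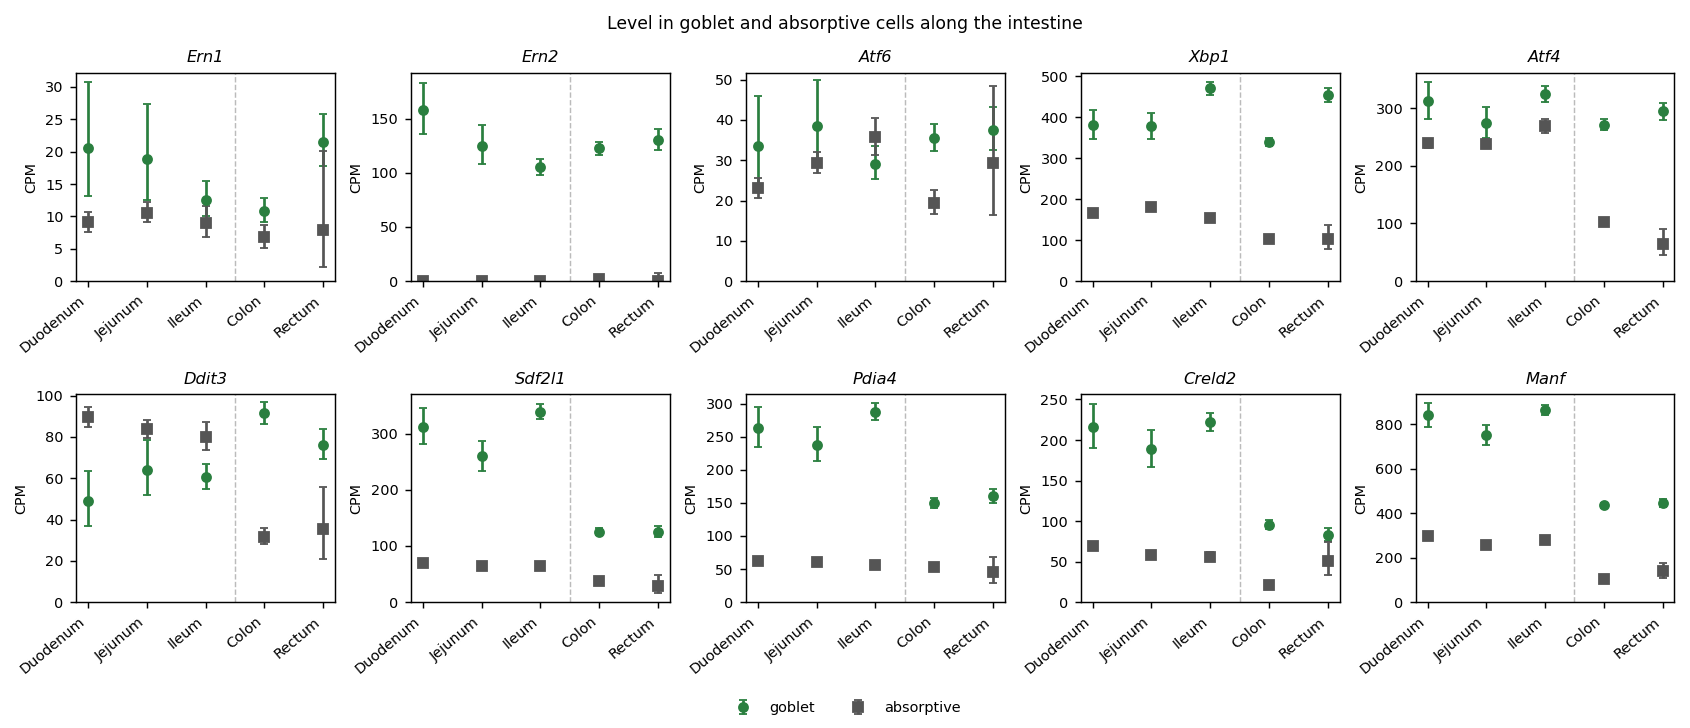
CPM of each gene in goblet cells (circles) and absorptive cells (squares) by library, with exact 95% Poisson intervals, and a dashed line between ileum and colon. Sdf2l1, Pdia4, Creld2 and Manf step down in goblet cells from ileum to colon, Ddit3 steps up in goblet cells and down in absorptive cells, and Ern2 stays near 0 in absorptive cells.

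Plasma cells, which differentiate from B cells and secrete antibody, were compared with the B cells of the same libraries. Ern2 had too few UMIs for the test, with 0, 0, 0, 1 and 6 in plasma and 1, 0, 1, 1 and 0 in B cells. Of the other 9 genes, 7 were higher in plasma cells (Ern1, Atf6, Xbp1, Sdf2l1, Pdia4, Creld2 and Manf) and none lower (edgeR quasi-likelihood test, Benjamini-Hochberg adjustment over 9434 genes). Over all genes tested, 27.9% were higher and 27.2% lower, and the median log2 difference was 3.94 for the 9 genes and -0.04 for all. Plasma cells had medians of 19623 to 29908 UMIs per cell and B cells 2727 to 3515. With library totals alone, the median of all genes fell to -1.45 and 735 genes were higher and 7455 lower, against 2628 and 2570, while the 7 genes were still called higher.

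Of the 9 genes tested, Xbp1 had the largest difference in plasma cells, at 1784, 1552, 1457, 1807 and 1909 CPM against 62.2, 71.9, 58.6, 71.5 and 78.8 CPM in B cells. The classes were far apart in every library, and the log2 difference was 6.03 ± 0.15, adjusted p = 1.87e-10 (edgeR). After thinning each cell to 2000 UMIs, 86.2% to 95.7% of plasma cells and 11.2% to 14.3% of B cells held an Xbp1 UMI, against 93.5% to 99.2% and 18.3% to 22.5% before thinning. Of the sensors, Ern1 was at 14.97, 16.1, 22.6, 18.5 and 13.2 CPM against 2.48, 3.33, 1.41, 1.66 and 0.529 CPM, from 32, 27, 17, 35 and 109 and 11, 7, 5, 2 and 1 UMIs, a log2 difference of 4.50 ± 0.29, adjusted p = 1.52e-07 (edgeR). Atf6 was at 51.0, 79.1, 49.3, 62.9 and 59.8 CPM against 40.6, 57.6, 29.7, 36.6 and 25.4 CPM. On this raw scale the Atf6 levels were close, with the jejunal B cells above the ileal and duodenal plasma cells, and with TMM factors, which allow for the immunoglobulin share, the log2 difference was 2.10 ± 0.15, adjusted p = 3.44e-07 (edgeR). With library totals alone it was 0.69 (adjusted p = 0.00147, edgeR).

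Atf4 and Ddit3 were not called with TMM factors. Atf4 was at 99.2, 105, 127, 94.1 and 94.1 CPM in plasma and 255, 234, 227, 210.4 and 212 CPM in B cells, and Ddit3 at 17.3, 11.3, 33.3, 8.99 and 12.3 CPM and 52.3, 41.9, 52.6, 44.9 and 51.3 CPM, so both were lower in plasma cells of every library as shares of all UMIs. With the immunoglobulin genes left out of the totals, Atf4 in plasma cells came to 296, 295, 345, 236 and 266 CPM, above B cells of the same library under the same totals (259, 239, 229.6, 213 and 216 CPM) in each case. Ddit3 came to 51.6, 31.6, 90.7, 22.6 and 34.7 CPM, above B cells (53.1, 42.7, 53.3, 45.6 and 52.1 CPM) in ileum and below them in the other 4 libraries. The log2 difference of Atf4 was 0.26 ± 0.11, adjusted p = 0.0598 and that of Ddit3 -0.29 ± 0.21, adjusted p = 0.254 with TMM factors, and -1.14 (adjusted p = 4.14e-06) and -1.71 (adjusted p = 1.26e-05) with library totals alone (edgeR), so Atf4 turned its direction with the scaling and Ddit3 did not.

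The ER proteins were again higher throughout. Creld2 was at 319.6, 378, 553, 509.7 and 666 CPM in plasma and 31.5, 31.0, 27.2, 22.5 and 21.7 CPM in B cells (log2 5.51 ± 0.22, adjusted p = 2.94e-09, edgeR). Pdia4 was at 408, 545, 754, 624 and 845 CPM against 82.9, 119.6, 112, 94.0 and 82.5 CPM (log2 4.06 ± 0.18, adjusted p = 5.99e-09, edgeR), and Sdf2l1 at 200.3, 302, 469, 328 and 470.4 CPM against 53.6, 55.3, 58.0, 61.5 and 62.4 CPM (log2 3.94 ± 0.16, adjusted p = 3.61e-09, edgeR). In these 3 genes no value of one class came near the other. Manf was at 446, 587, 836, 645 and 841 CPM against 173, 166, 192, 188 and 177 CPM, also without overlap (log2 3.27 ± 0.14, adjusted p = 5.94e-09, edgeR). Within plasma cells the 4 genes moved together over the libraries, lowest in duodenum, second lowest in jejunum, and highest in rectum, and their small and large intestinal ranges overlapped.

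In plasma cells nearly every gene of the ER lists was higher than in B cells. All 20 genes of ER-associated degradation, all 29 of translocation and all 22 of ER to Golgi transport were higher, with median log2 differences of 2.74, 2.40 and 2.01, and so were 25 of 26 chaperones and folding enzymes, with none lower and a median of 2.46. Txndc5, a disulfide isomerase, was at 835 to 1195 CPM against 49.4 to 65.3 (log2 5.59 ± 0.17, adjusted p = 8.10e-10, edgeR), and Selenom and Fkbp11 differed by 6.74 and 5.92. Edem1 and Edem2, which trim glycans of misfolded proteins, were at log2 5.58 and 5.51, and Derl3, a component of the export channel, was at 150.2 to 241 CPM against 0.832 to 15.7. Ssr4 (log2 4.16), Sec11c (4.14) and Spcs1 (3.72) led the translocation genes, and Kdelr3 (5.62), the cargo receptor Lman1 (4.78) and the coat protein Sec24d (4.25) the transport genes.

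With TMM factors, 19 of 26 genes of the integrated stress response were higher in plasma cells and 2 lower, although Atf4 and Ddit3 were not called. Over all genes, 27.9% were higher. As a share of all UMIs, the list summed to 844 to 1157 CPM in plasma and 1105 to 1278 CPM in B cells, lower in plasma cells of every library. Chac1, which degrades glutathione, was at 8.89 to 39.96 CPM against 0 to 0.832 (log2 6.96 ± 0.41, adjusted p = 6.51e-08, edgeR), Asns, the asparagine synthetase, at 5.34, and the transcription factor Atf5 at 3.76. Of 17 transducers and regulators, 11 were higher with TMM factors, Ern1 among them, and 3 lower. Their sum as a share of all UMIs was also lower in plasma cells of every library, at 529 to 566 CPM against 593 to 738 in B cells. The list was led by Bhlha15 (Mist1), a regulator of secretory cell architecture, at 9.52 to 13.6 CPM against 0 to 0.953, and Creb3l2 at 37.3 to 64.2 CPM against 1.06 to 4.29. Immediate early and dissociation genes were mixed, with 6 higher and 4 lower of 17. B cells held 1248 to 3422 CPM of the 12 plasma markers, all detected and highest in jejunum, and plasma cells 1184 to 2120.4 CPM of the 14 B markers, all detected, against 11793 to 12385 in B cells. A cluster of 185 cells with raised markers of both classes was left unnamed and is in neither.

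**Figure D4:**
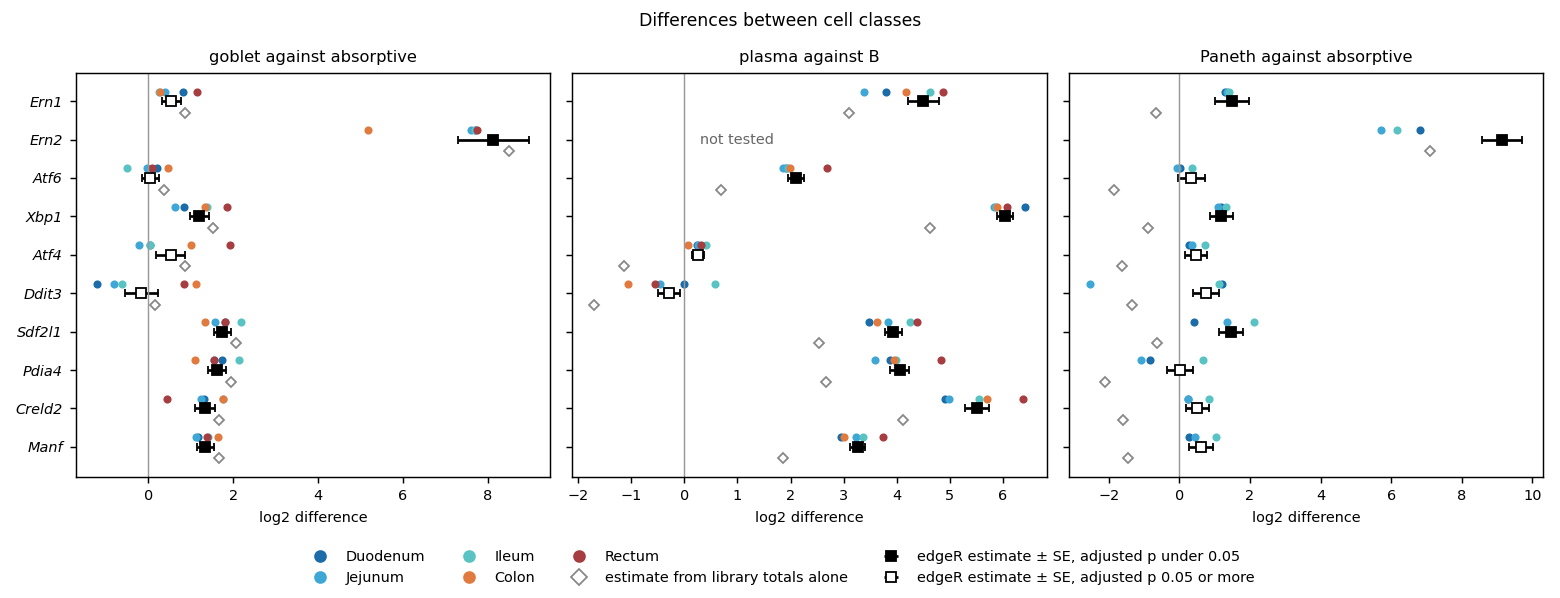
Log2 difference of each gene in 3 comparisons, with coloured dots for single libraries (TMM-scaled log2(CPM + 0.5)), black squares for the edgeR estimate ± SE (filled at an adjusted p under 0.05) and open diamonds for the estimate from library totals alone. Estimates lie further left without TMM factors in the plasma and Paneth comparisons, where every Paneth estimate but that of Ern2 then falls below 0.

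Paneth cells rest on few cells, 8, 4 and 23 in duodenum, jejunum and ileum, with medians of 25156, 71549 and 115498 UMIs. Compared with absorptive cells of the same libraries, 4 of the 10 genes were higher with TMM factors (Ern1, Ern2, Xbp1 and Sdf2l1) and none lower, whereas 16.6% of the 10100 genes tested were higher and 22.4% lower (edgeR quasi-likelihood test, Benjamini-Hochberg adjustment). Goblet sums of these libraries were part of the same fit and shared its estimate of the spread, so the p-values do not rest on Paneth and absorptive sums alone. The direction depended on the scaling: with library totals alone, Ern2 alone was higher and 7 genes (Atf6, Xbp1, Atf4, Ddit3, Pdia4, Creld2 and Manf) were lower. The median of all genes was then -2.30, and 577 genes were higher and 7662 lower, against 1681 and 2260. With defensin genes left out and library totals alone, an alternative chosen after seeing the data, 3 genes were higher (Ern2, Xbp1 and Sdf2l1) and none lower, and 1204 of all genes were higher and 3513 lower.

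Ern2 was at 30.4, 9.68 and 11.4 CPM of all UMIs and 84.3, 30.1 and 35.5 CPM without defensin genes, against 0.194, 0.0586 and 0 CPM in absorptive cells. It was higher under each of the 3 scalings, from 9, 3 and 27 UMIs. The ratio of CPM was 157 in duodenum (95% counting interval 39.3 to 903) and 165 in jejunum (13.3 to 8672), and Ern2 was at least 25.2-fold higher in ileum against the floor of 3 counts. The log2 difference with TMM factors was 9.14 ± 0.56, adjusted p = 6.29e-12 (edgeR). Its level stayed below that of goblet cells of the same library, 158, 125 and 105 CPM, also without defensin genes in the total. Paneth cells held 13556 to 15449 CPM of the 15 goblet markers, all detected, and the part of these in the Ern2 level was not tested. Xbp1 was at 112, 90.3 and 77.9 CPM of all UMIs and 309, 281 and 243 CPM without defensin genes, against 167, 181 and 155 CPM in absorptive cells. Thus Xbp1 was below the absorptive level as a share of all UMIs and above it as a share of the rest, in all 3 libraries, with a log2 difference of 1.19 ± 0.31, adjusted p = 0.00401 with TMM factors, -0.88 (adjusted p = 0.00763) with library totals alone, and 0.70 (adjusted p = 0.0460) with defensins left out of them (edgeR).

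Sdf2l1 was at 27.1, 38.7 and 56.0 CPM of all UMIs and 74.9, 121 and 175 CPM without defensin genes, against 69.9, 64.8 and 64.1 CPM in absorptive cells. It was called with TMM factors (log2 1.47 ± 0.34, adjusted p = 0.00152, edgeR) and lost without the ileum (1.08, adjusted p = 0.0576), which holds most of the cells. Ern1 rested on 2, 2 and 12 UMIs, and its call (log2 1.49 ± 0.48, adjusted p = 0.0158, edgeR) was lost without the jejunum (adjusted p = 0.0651) or the ileum (adjusted p = 0.275). Without the ileum 2 of the 10 genes, Ern2 and Xbp1, were still called. Pdia4 was at 10.1, 6.45 and 18.1 CPM of all UMIs and 28.1, 20.1 and 56.5 CPM without defensin genes, against 62.6, 60.4 and 56.0 CPM in absorptive cells, and unlike in goblet cells it was not called (log2 0.03 ± 0.37, adjusted p = 0.967, edgeR). Manf was at 105, 80.6 and 116 CPM of all UMIs and 290.2, 251 and 362 CPM without defensin genes, against 297, 256 and 281 CPM in absorptive cells, and Creld2 at 23.7, 16.1 and 20.2 CPM of all UMIs and 65.5, 50.2 and 63.1 CPM without defensin genes, against 68.8, 58.7 and 56.0 CPM in absorptive cells. Neither was called (log2 0.62 ± 0.33, adjusted p = 0.146 and log2 0.51 ± 0.33, adjusted p = 0.228, edgeR), from 31, 25 and 275 and 7, 5 and 48 UMIs. Atf6, Atf4 and Ddit3 were not called either, with log2 differences of 0.34, 0.47 and 0.74, and Ddit3 passed without the jejunum (1.08, adjusted p = 0.0345, edgeR), where it had 1 UMI.

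Of the ER lists in Paneth cells with TMM factors, translocation again had the largest share, with 21 of 29 genes higher and none lower. Then came 17 of 31 genes of the integrated stress response (3 lower) and 13 of 27 chaperones and folding enzymes. Degradation had 9 of 19 higher and transport 7 of 22 (2 lower), beside 16.6% of all genes. As shares of all UMIs, these list sums were instead lower in Paneth than in absorptive cells of each library. Translocation genes summed to 1952 to 2219 CPM against 3041 to 4091, and chaperones and folding enzymes to 2293 to 3295 CPM against 5414 to 6149. Of the transducers and regulators, a list that also holds Ern1 and Ern2, 8 of 21 were higher, these 2 among them, and 3 lower. The median log2 difference of all genes was -0.15 and that of the 10 genes 0.68. Of the immediate early and dissociation genes, 10 of 18 were higher and 1 lower, with a median of 1.25, above that of the 10 genes. Paneth cells had medians of 0.288% to 0.990% mitochondrial UMIs and absorptive cells of these libraries 10.3% to 13.3%. The part of both in the differences was not tested.

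**Figure D5:**
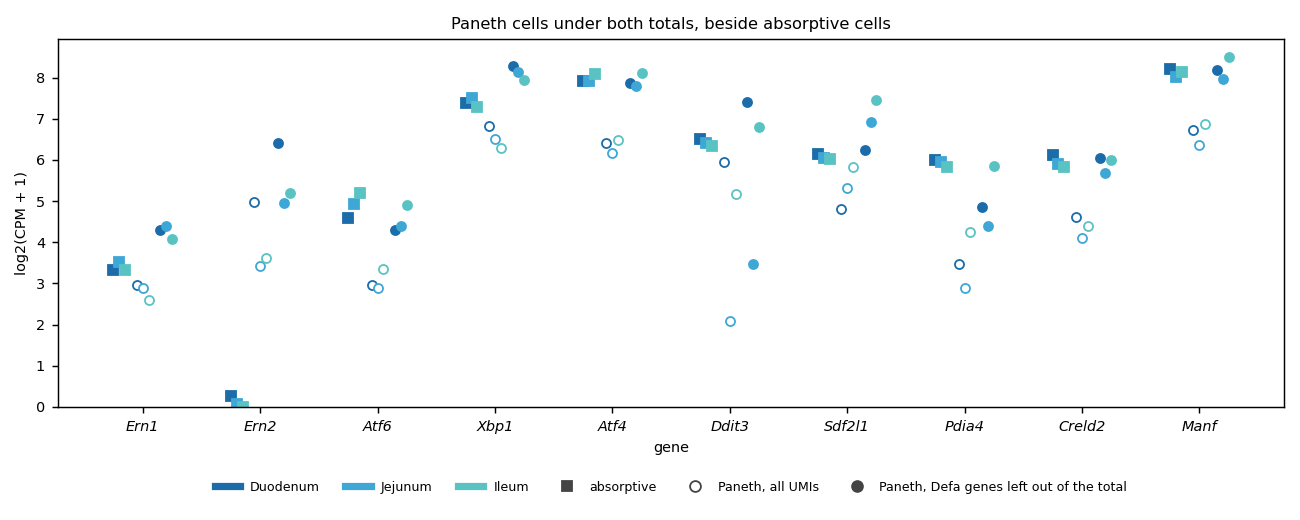
Log2(CPM + 1) of each gene in absorptive cells (squares) and in Paneth cells with all UMIs in the total (open circles) or with defensin genes left out (filled circles), coloured by the 3 small intestinal libraries. Xbp1 and Sdf2l1 lie below absorptive cells under the first total and above them under the second, and Ern2 lies above under both.

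Whether the plasma excess over B cells exceeded the goblet excess over absorptive cells was tested as a difference of the 2 differences. It was larger in plasma cells for 7 genes and smaller for none, beside 23.2% of 12391 genes larger and 19.9% smaller (edgeR quasi-likelihood test, Benjamini-Hochberg adjustment). Xbp1 had the largest gap, with a log2 difference of differences of 4.85 ± 0.34, adjusted p = 1.82e-06, followed by Creld2 (4.21 ± 0.36, adjusted p = 4.63e-06) and Ern1 (4.06 ± 0.42, adjusted p = 1.58e-05), all by edgeR. Pdia4, Sdf2l1, Atf6 and Manf followed at 2.46, 2.22, 2.09 and 1.94, each larger in 5 of 5 libraries. Of the 4 ER proteins, Creld2 and Manf had the smallest differences in goblet cells, and in plasma cells Creld2 had the largest and Manf the smallest. Ern2 went the other way (-6.26 ± 2.44) but missed the threshold at an adjusted p of 0.0563 (edgeR), from 7 UMIs in plasma cells and 3 in B cells. It passed with DESeq2 (-7.32, adjusted p = 3.87e-05) and, by edgeR, without the colon, at -7.64 (adjusted p = 0.00841, edgeR). With library totals alone, 781 of all genes were larger and 7308 smaller, against 2875 and 2467, and the calls of Atf6, Sdf2l1 and Manf were lost. Those of Atf6 (0.63, adjusted p = 0.202) and Manf (0.63, adjusted p = 0.107) were also lost with at most 10% mitochondrial UMIs (edgeR).

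Outside the compared classes, 2 sensors had their highest levels in cells that were in no test. Atf6 in enteroendocrine cells, the hormone-secreting cells of the epithelium, was at 254, 251, 868, 102 and 343 CPM from 186, 53, 344, 162 and 111 UMIs in 27, 10, 19, 54 and 15 cells. It was the highest of all named classes in each of the 5 libraries, and the ileal value, with an interval of 779 to 965 CPM, stood above the other 4. An Atf6 UMI was found in 59.3% to 84.2% of these cells, and averaging the CPM of single cells gave 148 to 795 CPM. Ern1 in innate lymphoid and natural killer cells was at 244, 185, 202, 159.7 and 129.7 CPM from 19, 6, 25, 18 and 40 UMIs. It too was the highest of all named classes in each library, and T cells came second by their median, at 16.0 to 58.3 CPM. Xbp1 in the same cells was at 79.9 to 202 CPM against 83.8 to 120.1 in T cells.

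Manf in stromal cells, which secrete extracellular matrix, was at 862, 500.3, 756, 723 and 739 CPM, within the range of goblet and plasma cells, with Xbp1 at 380.1, 410.2, 387, 426 and 400.2 CPM. Smooth muscle cells had 223, 42.5, 133, 1346 and 1289.7 CPM of Xbp1, high in colon and rectum alone. With immunoglobulin genes left out of the total these 2 values became 2095 and 1655 CPM, while the other 3 moved by less than 1 CPM, and the part of plasma cell RNA in them was not tested. Over 55 points, each a class in a library with at least 20 cells and 50000 UMIs, Xbp1 followed Creld2 and Pdia4 (r = 0.916 and 0.856 on log2(CPM + 5)), as a description over points that share libraries. Of the genes outside the lists, those most like the mean of Sdf2l1, Pdia4, Creld2 and Manf were H13, an intramembrane protease of the ER (r = 0.825), Prdx4, an ER peroxiredoxin (0.797), Ckap4, an ER membrane protein (0.791), Rsph1 (0.739) and Clptm1l (0.737). Rsph1 rested on 315 UMIs and reached at most 12.2 CPM, near the 5 CPM added before the log.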

How the data were processed

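The unit is a UMI count per gene and cell, in 1 deposited matrix for each of the 5 intestinal libraries. The authors made these counts with Cell Ranger 4.0.0 on mm10, per the submitters' processing notes, whereas the matrix headers name version 7.2.0, and no normalization was applied to the deposited counts. Chemistry and annotation are not given in the sources used here. A barcode needed 300 genes or more and no more than 20% of UMIs from mitochondrial genes, which left 12255 of 16535, and the 333 with the highest Scrublet scores, 0.8% per 1000 barcodes of a library, were removed, since Scrublet's own threshold marked 20. Cells were clustered in scanpy 1.11.5 with 2000 variable genes, 30 components, 15 neighbours and Leiden resolution 1.0 (igraph 0.11.9), without the 10 genes and the ER lists (162 genes in all). A cluster could take the name of a marker list if at least 3 markers and 50% of the list were raised 1.5 times over the other cells in at least 10% of its cells. Lists were ranked by that share times the mean log2 fold, and a cluster stayed unnamed where a list of another class reached 75% of the best score. Cells with UMIs of at least 4 tuft markers were called tuft. These naming thresholds, and the doublet rate, were set with the data in hand. The 10 genes and all lists were chosen with earlier results of these data known.

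UMIs were summed by class and library, for sums of at least 3 cells, and tested with edgeR 4.0.16 (R 4.3.3) by the quasi-likelihood method, with TMM factors, edgeR's own filter on low counts, library as a term and Benjamini-Hochberg adjustment over all genes tested, called at 0.05. The classes of 1 library come from the same sample, which is why the library is a term. The Paneth fit also held the goblet sums of the same libraries, which enter its scaling and its estimate of the spread. The fits were also run on simulated counts with known fold changes. In those counts the classes of a lineage shared 1 composition apart from the changed genes. They therefore cannot show how the scaling handles the defensin or immunoglobulin share of the real sums. Total UMIs per library set the precision, and shares of cells were also given after thinning to 2000 UMIs. DESeq2 1.42.0 was an alternative, and others changed the scaling, the filters on cells and genes, the clustering, the totals and the libraries used. The scaling by library totals with the secreted genes left out was chosen after seeing the data. Named beside the 10 genes are, for each ER list, the 3 genes with the largest called log2 difference in the goblet and in the plasma comparison, and the 5 genes outside the lists that correlated best with the mean of Sdf2l1, Pdia4, Creld2 and Manf. Ddit3 has a further row in the gene list, which held 0 UMIs. Tissue sections of the series were not analysed here.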

Additional observations from a re-analysis of the deposited data

Results flagged for a closer look

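In 2 cases a single library was flagged as far from the other 4. The goblet to absorptive difference of Ern2 was 5.18 in colon, on the TMM-scaled log2(CPM + 0.5) scale, and the next lowest library was at 7.61. Colonic absorptive cells held 18 Ern2 UMIs, and those of duodenum, jejunum, ileum and rectum held 3, 1, 0 and 0. At so few UMIs the added 0.5 CPM limits the difference, so the other 4 values are close in part through the scale. By counts, the goblet to absorptive ratio was 57.5 in colon and at least 22.2 in rectum, so these libraries cannot be ordered. The plasma to B difference of Atf6 was 2.69 in rectum, and the next highest library was at 1.996. Chance alone marks about 1 in 20 such groups of 5 libraries, a rate that does not hold for Ern2, where the scale limits the values. The groups screened were the 10 genes of the goblet comparison and the 9 tested in the plasma comparison, so the single Atf6 flag is not above that rate.

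The plasma excess over B cells differed from the goblet excess over absorptive cells for 7 genes, by a test of the difference itself (edgeR quasi-likelihood, Benjamini-Hochberg adjustment). The log2 gap was 4.85 for Xbp1, 4.21 for Creld2 and 4.06 for Ern1. It was 2.46 for Pdia4, 2.22 for Sdf2l1, 2.09 for Atf6 and 1.94 for Manf. With library totals alone the calls of Atf6, Sdf2l1 and Manf were lost, and Atf4, Ddit3 and Ern2 were called smaller in plasma cells. With at most 10% mitochondrial UMIs those of Atf6 and Manf were lost.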

How the results depend on the processing

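Across all alternatives, the log2 difference of a gene kept its direction and its side of the threshold in 167 of 180 refits for goblet against absorptive cells, 155 of 162 for plasma against B cells, 124 of 150 for Paneth against absorptive cells and 157 of 180 for the difference of differences. The goblet count stayed at 6 to 7 genes under all but 1 of its alternatives, and was 9 without mucus genes and TMM factors, where Ern1 (1.10), Atf6 (0.59) and Atf4 (1.07) also passed (edgeR). In that setting 4800 of 12409 genes were higher, against 2793 of 12470, and the median of all genes was 0.57, against 0.03, so Atf6 lay close to it. The plasma count of higher genes was 7 or 8, the eighth being Atf4, which passed with no library term, with no doublets removed, and with immunoglobulin genes and TMM factors left out.

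Library totals alone gave 1 higher gene in Paneth cells and reversed Ern1 (-0.66), Atf6 (-1.84), Xbp1 (-0.88), Atf4 (-1.62), Ddit3 (-1.35), Sdf2l1 (-0.64), Pdia4 (-2.11), Creld2 (-1.61) and Manf (-1.47), where defensin genes hold 63.9% to 68.0% of the totals. With defensins also left out, Atf6 (-0.22), Atf4 (-0.025), Pdia4 (-0.50) and Creld2 (-0.00539) were below 0, and the Ern1 call was lost (0.95, adjusted p = 0.102, edgeR). Library totals alone also reversed Atf4 in plasma cells (-1.14) and Ddit3 in goblet cells (0.17, and 0.38 without mucus genes), and ended the calls of the difference of differences for Atf6 (0.33), Sdf2l1 (0.46) and Manf (0.19), while Atf4 (-1.99), Ddit3 (-1.86) and Ern2 (-8.04) were then called smaller in plasma cells.

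Leaving out 1 library at a time gave 2 to 4 genes in Paneth cells, lowest without the ileum, and ranges that crossed 0 for Pdia4 in Paneth cells (-0.80 to 0.17), Ddit3 in goblet cells (-0.39 to 0.19), and Atf4 (-0.46 to 0.10) and Ddit3 (-0.47 to 0.43) in the difference of differences. None of these 4 was called. With at most 10% mitochondrial UMIs, Ddit3 in goblet cells (0.0504), Atf4 in plasma cells (-0.0562) and Pdia4 in Paneth cells (-0.44) turned, as did, at resolution 0.5, Ddit3 in goblet cells (0.0194) and Pdia4 in Paneth cells (-0.23), and Pdia4 with no filter on low counts (-0.20). The same limit of 10% ended the calls of Ern1 in Paneth cells (1.36) and of Atf6 (0.63) and Manf (0.63) in the difference of differences. With every barcode kept, Atf6 in goblet cells (-0.00748) and Ddit3 in the difference of differences (0.17) turned. The cause was not tested. Without the replicate block (no library term) the counts were 6, 8, 4 and 8 in the same order, and Ddit3 in the last turned (0.12).

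Over all genes, library totals alone moved the higher and lower counts as given in the report. Those of the goblet comparison were also 4800 and 1500 without mucus genes and TMM factors, 934 and 1184 with at most 10% mitochondrial UMIs, and 1577 and 1537 lower without the jejunum or ileum. Those of the Paneth comparison were 623 and 1331 without the ileum and 895 and 1097 with at most 10% mitochondrial UMIs, and those of the difference of differences 1242 and 1507 under that limit, and 3857 smaller without the secreted genes and TMM factors.

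Paneth sums of at least 10 cells left the ileum alone and could not be fitted. Every barcode kept left 4 libraries in the goblet comparison, and 10% mitochondrial UMIs left 3, all of the small intestine. The 35 Paneth cells, the 57 rectal absorptive cells and 1 library per segment set the depth of what was compared.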
